A study of Mus musculus with 8 samples.

Results

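A set of 9 genes of alveolar type 1 (AT1) cells was followed in lung endothelial cells (ECs) of neonatal mice, out of 54532 genes in the deposited table and 15564 genes tested. The genes were Ager, Hopx, Aqp5, Rtkn2, Cldn18, Akap5, Emp2, Clic5 and Gprc5a, chosen by name as genes of AT1 cells. A list of 10 names was searched, and 9 matched exactly 1 row each. The remaining name was a placeholder for Spock2 that matched no row, so Spock2 is described below with a further list of AT1 genes. All 9 genes passed the filter on low counts, and each reached its level of 0.566 CPM in all 4 normoxia libraries, so none passed only through hyperoxia. The libraries came from ECs of wild-type C57BL/6J pups at postnatal day (P) 14. In the normoxia group (n = 4) pups had lived in room air with 21% O2, and in the hyperoxia group (n = 4) they had lived in 80% O2 since the day of birth, with nursing dams exchanged between both conditions. Lung suspensions had been depleted of CD45-positive leukocytes, and cells bound to CD31-coated beads were collected as ECs, so any other lung cells held by the beads were sequenced with them. The labels do not say whether a library came from 1 pup or a pool, and the p-values measure only the spread between these libraries.

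AT1 cells are the thin, flat epithelial cells that cover most of the alveolar surface and face the capillaries across a shared basement membrane. They carry out gas exchange and form part of the barrier between air and blood. Alveolar type 2 (AT2) cells, the cuboidal cells that make surfactant, can give rise to AT1 cells during growth and repair. Neonatal hyperoxia is used as a mouse model of bronchopulmonary dysplasia, in which alveoli and vessels form poorly.

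In the CD31-bound isolate from hyperoxic lungs, 7 of the 9 AT1 genes rose and none fell, with an adjusted p under 0.05 as the threshold of the edgeR quasi-likelihood test. Over all genes tested 35.6% passed the same test, 18.5% as higher and 17.1% as lower. Pan-epithelial and AT2 markers were read in the same libraries. Of 6 pan-epithelial genes, only Cdh1 and Cldn7 reached the level of the filter in all normoxia libraries, and both were higher. Cdh1 went from 2.40 ± 0.828 to 23.2 ± 10.2 CPM and Cldn7 from 1.24 ± 0.381 to 3.38 ± 1.51 CPM (SD, n = 4). Of 12 AT2 genes that reached the level of the filter in all normoxia libraries, 11 were higher. Another AT2 gene, S100g, was below that level in normoxia and is not counted. Aqp5, Cldn18, Rtkn2, Akap5 and Ager rose by 6.04-fold to 13.6-fold, Gprc5a rose 3.46-fold and Hopx rose 1.55-fold. All of these except Hopx, 6 genes, also had a log2 fold change of at least 1, against 5.62% of all genes tested that were higher by this rule and 1.36% that were lower. The remaining genes, Emp2 and Clic5, were the most abundant of the 9 in normoxia and did not pass the test. The median log2 fold change was 2.59 over the 9 genes and -0.0040 over all genes tested. In the 7 genes that rose, every hyperoxia library lay above every normoxia library, as in 17.8% of all genes tested, while 17.6% of all genes had every hyperoxia library below every normoxia library.

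Depth did not separate the groups. Total counts ran from 16098086 to 18300730 per library (exact two-sided permutation p = 0.457 for the difference between groups). One library, hyperoxia 3, was the lowest of its group in 8 of the 9 AT1 genes, all but Clic5, and in the summed CPM of the AT2 and pan-epithelial lists. This was not particular to epithelial lists, as the fibroblast, mural, leukocyte, mesothelial and aerocyte sums described below were also lowest in hyperoxia 3. The pan-endothelial, general capillary, airway and AT1 regulator sums were not lowest in hyperoxia 3. Results are therefore given with and without it. Without hyperoxia 3 the same 7 genes were past the test, and the log2 fold change of Ager was 2.86 instead of 2.59.

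Promoters are shown for the genes at the ends of this range, namely Aqp5 with the largest fold change, Ager with the largest rise per gene length, and Emp2 and Clic5, which did not pass the test. The sequences are RefSeq's for build GRCm38.p6 and cover 250 bases before and 50 bases after the annotated start, 5′ to 3′ on the strand of the gene. Capitals mark the GC box GGGCGG or its reverse complement, a short motif bound by SP and KLF factors. The windows are chr17:34597600-34597899 (+ strand) for Ager, chr15:99590778-99591077 (+ strand) for Aqp5, chr16:10313919-10314218 (- strand) for Emp2 and chr17:44188322-44188621 (+ strand) for Clic5. For Aqp5 the RefSeq start lies downstream of the start of the counted gene, 99590782. Nearly all of its window thus lies inside the counted gene.
Ager: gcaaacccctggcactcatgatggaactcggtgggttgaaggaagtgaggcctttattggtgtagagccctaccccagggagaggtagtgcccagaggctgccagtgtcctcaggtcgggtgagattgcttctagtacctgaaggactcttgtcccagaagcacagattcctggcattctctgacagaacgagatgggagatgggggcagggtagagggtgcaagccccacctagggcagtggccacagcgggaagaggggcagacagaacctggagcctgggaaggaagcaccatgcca
Aqp5: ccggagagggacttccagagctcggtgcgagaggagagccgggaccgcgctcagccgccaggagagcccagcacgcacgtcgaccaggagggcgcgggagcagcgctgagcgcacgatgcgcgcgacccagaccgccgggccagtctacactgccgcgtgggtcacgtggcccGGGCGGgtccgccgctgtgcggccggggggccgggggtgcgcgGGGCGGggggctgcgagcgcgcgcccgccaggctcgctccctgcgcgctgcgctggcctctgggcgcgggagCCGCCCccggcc
Emp2: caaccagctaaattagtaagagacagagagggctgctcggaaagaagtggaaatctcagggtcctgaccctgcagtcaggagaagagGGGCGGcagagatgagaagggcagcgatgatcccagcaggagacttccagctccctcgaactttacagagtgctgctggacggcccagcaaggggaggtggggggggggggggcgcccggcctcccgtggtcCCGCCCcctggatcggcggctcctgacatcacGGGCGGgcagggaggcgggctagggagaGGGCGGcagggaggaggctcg
Clic5: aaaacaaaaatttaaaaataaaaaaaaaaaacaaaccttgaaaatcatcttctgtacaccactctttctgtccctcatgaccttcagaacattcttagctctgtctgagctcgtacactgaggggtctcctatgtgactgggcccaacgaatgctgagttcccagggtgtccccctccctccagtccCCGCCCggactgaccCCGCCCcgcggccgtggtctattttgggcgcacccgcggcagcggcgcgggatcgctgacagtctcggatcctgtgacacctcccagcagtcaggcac
Of the 9 genes, 7 matched the RefSeq promoter table, all but Rtkn2 and Gprc5a, and they had 9 promoter windows because Hopx and Cldn18 have more than 1 annotated start. The promoters were searched for 5 motifs, on both strands. The GC box occurred in 4 of the 9 windows, those of Akap5, Aqp5, Emp2 and Clic5, against 35.7% of all 32851 promoter windows. It was thus present both in genes that rose and in the pair that did not pass the test. The core motif CAAGTG of NKX2-1, a transcription factor of lung epithelium, occurred in 2 windows, 1 of Hopx and 1 of Cldn18, against 13.6% of all windows. These were chr5:77095218-77095517 for Hopx and chr9:99710014-99710313 for Cldn18. In each gene this was the downstream window, and the window at the upstream start did not hold the motif. The TEAD motif GGAATG (14.7% of all windows), the AP-1 motif TGANTCA (7.81%) and the TATA box TATAAA (13.6%) occurred in none of the 9 windows. The GC content was 79.7% in the Aqp5 window, 65.7% in that of Emp2, 58.3% in that of Ager and 54.3% in that of Clic5, with a median of 52.7% over all windows.

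The 9 genes differed widely in their level in normoxia. Levels are compared between genes as FPKM, a measure that divides counts by exon length and library depth. Mean normoxia FPKM was 109 ± 19.7 for Emp2, 79.1 ± 2.50 for Clic5, 27.6 ± 2.57 for Hopx, 11.8 ± 0.655 for Gprc5a and 11.8 ± 1.80 for Ager (SD, n = 4). It was 1.15 ± 0.324 for Cldn18, 0.911 ± 0.258 for Akap5, 0.603 ± 0.258 for Aqp5 and 0.283 ± 0.108 for Rtkn2. Neighbours in this order whose ranges overlapped were Gprc5a and Ager, and then each pair in the row from Cldn18 over Akap5 and Aqp5 to Rtkn2. Emp2 and Clic5 did not overlap, with lowest and highest values of 85.2 and 81.7 FPKM. A limit of 10 FPKM set the first 5 genes apart as high in normoxia. Ager was the lowest inside this limit at 11.8 FPKM and Cldn18 the highest outside it at 1.15 FPKM. With a limit of 20 FPKM only Emp2, Clic5 and Hopx counted as high. Emp2 stood above 97.7% of all tested genes in normoxia and Clic5 above 96.6%, while Rtkn2 stood above 7.11%. For scale, the endothelial junction genes Cldn5 and Cdh5 had 1447 and 972 FPKM in normoxia. Emp2 and Clic5 together held 93.1 to 94.8% of the summed CPM of the 9 genes in normoxia libraries and 77.2 to 88.8% in hyperoxia libraries. A high level in this isolate does not show which cell held the RNA.

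**Figure D1:**
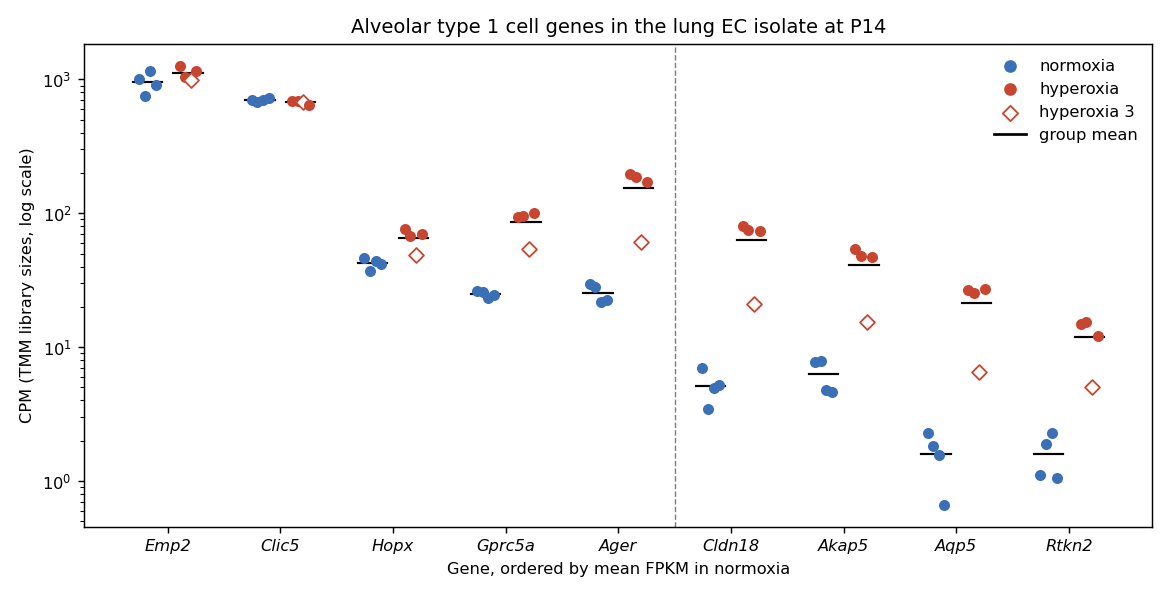
CPM (log scale) of each of the 9 AT1 genes in each library, ordered by mean normoxia FPKM, with normoxia in blue, hyperoxia in red, hyperoxia 3 as an open diamond and group means as black bars; the dashed line divides genes above and below 10 FPKM in normoxia. In the 7 genes from Hopx to Rtkn2 hyperoxia 3 lies above all normoxia libraries and below the other hyperoxia libraries, while the groups overlap in Emp2 and Clic5.

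The 4 genes that were low in normoxia all rose. Values are CPM, counts scaled to the TMM-normalized library size. Aqp5 (ENSMUSG00000044217, chromosome 15, 99590782 to 99594829, GRCm38) encodes a water channel of the apical membrane. It stood at 2.27, 1.82, 1.57 and 0.663 CPM in normoxia 1 to 4 and at 26.6, 25.3, 6.53 and 27.1 CPM in hyperoxia 1 to 4. The groups did not overlap, and hyperoxia 3 lay far below the other hyperoxia libraries. The log2 fold change was 3.76 (SE 0.468, edgeR adjusted p 0.000142). The normoxia level rested on 12 to 37 counts per library, so its fold change is less precise than those of the more abundant genes.

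Cldn18 (ENSMUSG00000032473, chromosome 9, 99689461 to 99717267) encodes a claudin of epithelial tight junctions. It has a lung and a stomach isoform with separate starts, which counts per gene do not tell apart. Normoxia libraries held 6.98, 3.47, 4.98 and 5.19 CPM, and hyperoxia libraries held 80.2, 75.4, 21.1 and 74.2 CPM. Hyperoxia 1, 2 and 4 were close together and hyperoxia 3 lay between them and normoxia. The log2 fold change was 3.61 (SE 0.399, edgeR adjusted p 6.31e-05).

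Akap5 (ENSMUSG00000021057, chromosome 12, 76324891 to 76334153) encodes a scaffold that anchors protein kinase A near the membrane. It went from 7.78, 7.85, 4.81 and 4.64 CPM in normoxia to 54.3, 47.6, 15.3 and 47.5 CPM in hyperoxia. Rtkn2 (ENSMUSG00000037846, chromosome 10, 67979570 to 68059740) went from 1.10, 1.88, 2.29 and 1.05 CPM to 14.8, 15.3, 5.04 and 12.1 CPM. In both genes the groups were apart and hyperoxia 3 was again the lowest of its group. Their log2 fold changes were 2.72 (SE 0.360, edgeR adjusted p 0.000215) and 2.90 (SE 0.370, adjusted p 0.000168). In the annotation the antisense gene Gm16212 covers 3.89% of the exon bases of Rtkn2, but it had a mean of 0.0140 CPM.

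Among the 5 genes that were high in normoxia, both receptors rose. Ager (ENSMUSG00000015452, chromosome 17, 34597862 to 34600936) encodes the receptor for advanced glycation end products, a membrane protein of the immunoglobulin superfamily that is abundant on the basal side of AT1 cells. It stood at 29.6, 27.9, 21.7 and 22.5 CPM in normoxia and at 197, 186, 60.5 and 170.1 CPM in hyperoxia. Even hyperoxia 3, the lowest hyperoxia library, held more than any normoxia library. The log2 fold change was 2.59 (SE 0.312, edgeR adjusted p 0.000114). Gprc5a (ENSMUSG00000046733, chromosome 6, 135065651 to 135084709) encodes an orphan G protein-coupled receptor induced by retinoic acid. It went from 26.3, 25.7, 23.2 and 24.3 CPM to 94.2, 94.9, 53.9 and 101 CPM. Its log2 fold change was 1.79 (SE 0.168, edgeR adjusted p 2.02e-05). Gprc5a had about the normoxia FPKM of Ager and a smaller fold change.

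Hopx (ENSMUSG00000059325, chromosome 5, 77086988 to 77115121) encodes a small homeodomain protein that does not bind DNA and acts with other transcription regulators. It stood at 45.9, 37.1, 43.9 and 42.0 CPM in normoxia and at 75.9, 67.2, 48.4 and 70.5 CPM in hyperoxia. The groups were apart by a narrow margin, between normoxia 1 and hyperoxia 3. The log2 fold change was 0.63 (SE 0.124, edgeR adjusted p 0.00245), below the fold change the study required. Exons of the antisense gene Hopxos cover 27.2% of the exon bases of Hopx. Hopxos had a mean of 0.499 CPM, and whether the counting used strand was not stated.

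Emp2 and Clic5 had the highest levels and did not pass the test. Emp2 (ENSMUSG00000022505, chromosome 16, 10281749 to 10313968) encodes a membrane protein with 4 transmembrane segments that organizes surface integrins. It stood at 1005, 747, 1148 and 904 CPM in normoxia and at 1261, 1046, 990.3 and 1151 CPM in hyperoxia. The groups overlapped, as normoxia 3 and normoxia 1 lay above hyperoxia 3. The log2 fold change was 0.23 (SE 0.119, edgeR adjusted p 0.17). Without normoxia 3 it was 0.33 with an adjusted p of 0.0422, so that library decided the call, and over the other alternatives the adjusted p ran from 0.0989 to 0.849. Clic5 (ENSMUSG00000023959, chromosome 17, 44188584 to 44280172) encodes an intracellular chloride channel protein linked to the actin cytoskeleton. It varied little, with 702, 674, 701 and 723 CPM in normoxia and 687, 691, 680.2 and 642 CPM in hyperoxia. Its groups overlapped as well, and the log2 fold change was -0.05 (SE 0.0439, adjusted p 0.387).

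**Figure D2:**
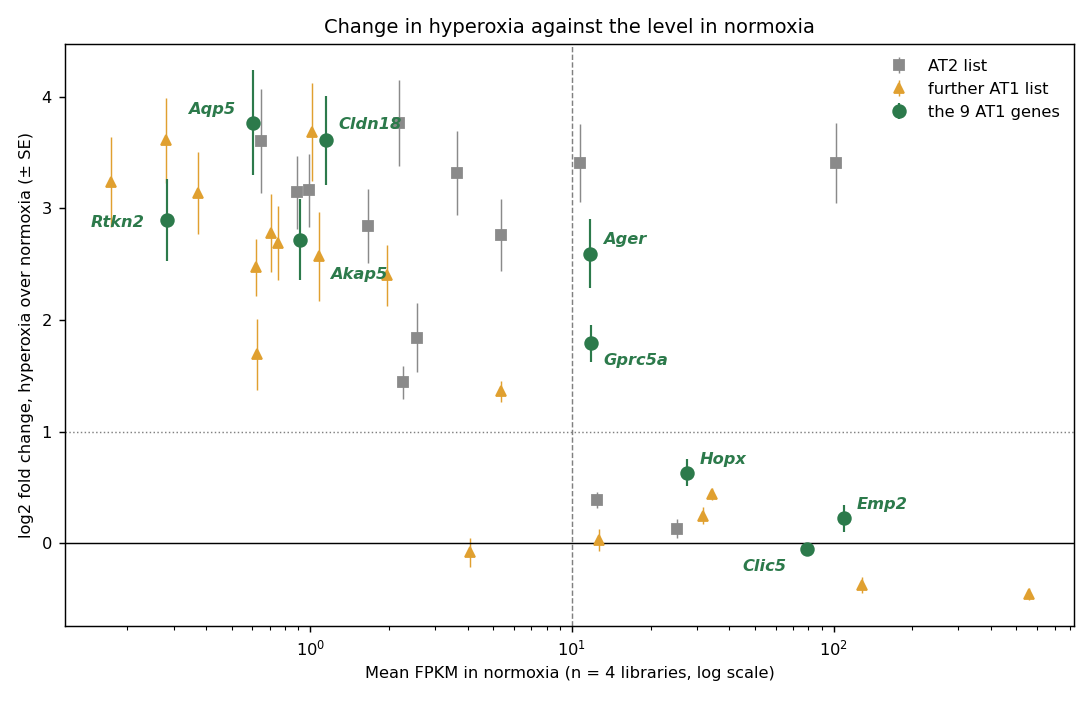
Log2 fold change (hyperoxia over normoxia, with SE) against mean normoxia FPKM (log scale) for the 9 AT1 genes in green, a further list of AT1 genes in orange and a list of AT2 genes in grey; the dashed line marks 10 FPKM and the dotted line a log2 fold change of 1. Clic5 and Emp2 lie near 0 at 79.1 and 109 FPKM, and Sftpc, an AT2 gene at 102 FPKM in normoxia, lies at 3.40.

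On a linear scale the order of the genes was different. Differences in mean FPKM between hyperoxia and normoxia were 59.4 for Ager, 29.2 for Gprc5a, 15.3 for Hopx and 12.8 for Cldn18. They were 7.57 for Aqp5, 5.09 for Akap5 and 1.84 for Rtkn2. Aqp5, which had the largest fold change, thus gained less RNA per length than Hopx, which had the smallest among the genes that rose. The difference for Emp2 was 18.7 FPKM, above that of Hopx, but against an SD of 19.7 FPKM within normoxia. The difference for Clic5 was -2.60 FPKM.

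The position of hyperoxia 3 was similar in 6 of the 7 genes that rose. The rise of a gene in a library is its CPM minus its normoxia mean. In hyperoxia 3 the rise was 22.1% of the mean rise in hyperoxia 1, 2 and 4 for Ager, 21.2% for Hopx, 19.98% for Aqp5, 27.6% for Rtkn2, 22.3% for Cldn18 and 20.8% for Akap5. Gprc5a differed from these, at 40.5%. Among all 875 genes that were higher with a log2 fold change of at least 1, the median of this percentage was 61.7 and the middle 50% ran from 27.1 to 89.9. Of these genes 250 (28.6%) were at 30% or less. Low values also occurred outside epithelial lists. Genes called by the same rule ran from 5.60% to 39.7% in a list of fibroblast markers and from 0.0936% to 84.1% in one of mural markers. This measure was chosen after the values of hyperoxia 3 were seen and is given with no test.

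**Figure D3:**
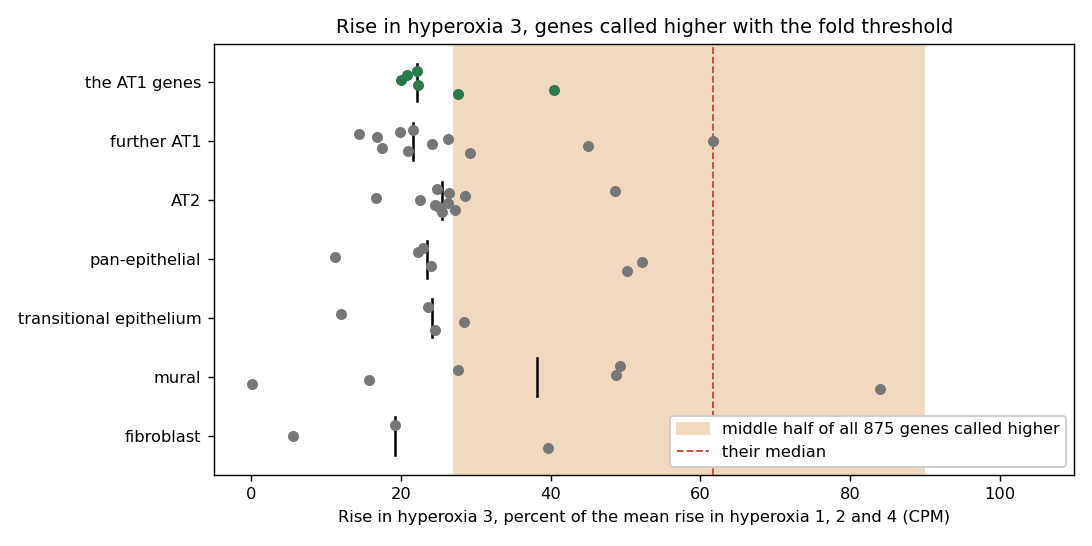
Rise of single genes in hyperoxia 3 as a percentage of their mean rise in hyperoxia 1, 2 and 4, for genes with an adjusted p under 0.05 and a log2 fold change of at least 1, by list, with list medians as black bars; the shaded band holds the middle 50% of all 875 such genes and the dashed line their median. The 6 AT1 genes shown have a median of 22.2% and the 11 AT2 genes one of 25.5%, against 61.7% over all. The fibroblast genes shown have a median of 19.1% and the mural genes one of 38.2%. Some genes shown, S100g of the AT2 list among them, did not reach the level of the filter in all normoxia libraries.

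Relative to the rise of Ager in the same library, the rise of Cldn18 was 0.437, 0.437 and 0.477 in hyperoxia 1, 2 and 4 and 0.453 in hyperoxia 3. The rise of Akap5 was 0.257 to 0.285 times that of Ager in these 3 libraries and 0.258 in hyperoxia 3, and that of Hopx was 0.156 to 0.196 and 0.175. Hyperoxia 3 thus lay within the range of the other libraries for these 3 genes. Aqp5 (0.146 to 0.176 against 0.141) and Rtkn2 (0.0730 to 0.0858 against 0.0985) lay slightly outside, and Gprc5a (0.404 to 0.526 against 0.828) lay far outside.

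Ratios of counts within a library do not depend on how libraries are scaled. Such ratios were compared for 3 gene pairs between the groups with exact permutation tests, which were two-sided and used all 70 assignments of the libraries, and each gave an adjusted p of 0.0286, the smallest that 4 against 4 libraries allow. Ager held 0.198, 0.283, 0.213 and 0.301 counts per count of Sftpc, the surfactant protein C gene of AT2 cells, in normoxia 1 to 4. In hyperoxia the ratio was lower and nearly constant, at 0.138, 0.132, 0.144 and 0.138, hyperoxia 3 included. The mean log2 ratio fell by 0.83, so Ager rose by less than Sftpc. The ratio of Hopx to Ager went from 1.69 ± 0.310 to 0.490 ± 0.207 (SD, n = 4 each), a log2 difference of -1.85, and hyperoxia 3 at 0.799 lay above the other hyperoxia libraries at 0.362 to 0.415. The ratio of Aqp5 to Ager went from 0.0609 ± 0.0214 to 0.135 ± 0.0210, a log2 difference of 1.22. The 3 AT1 genes thus rose by unequal factors.

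**Figure D4:**
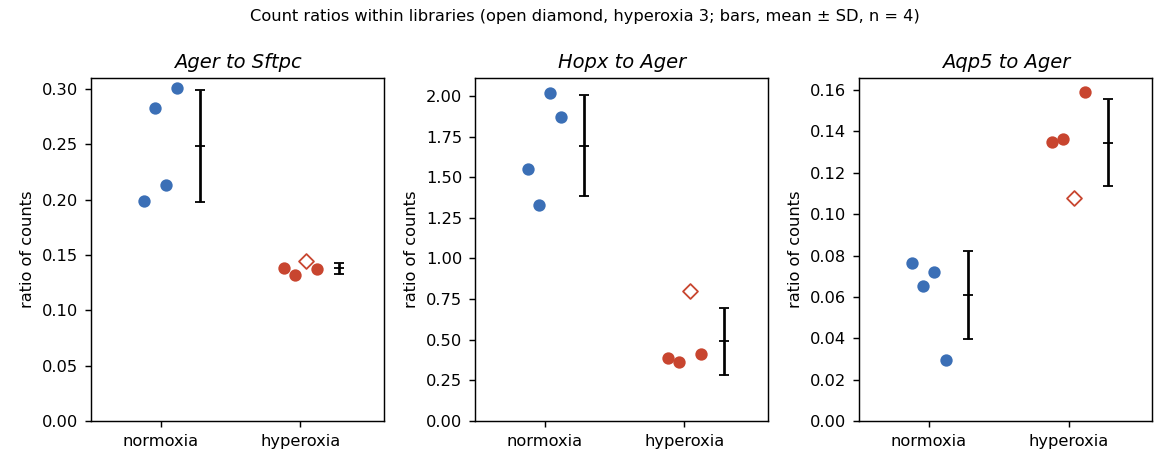
Ratio of counts of 2 genes in each library for Ager to Sftpc, Hopx to Ager and Aqp5 to Ager, with bars for mean ± SD (n = 4) and hyperoxia 3 as an open diamond. The first ratio lies between 0.132 and 0.144 in hyperoxia and between 0.198 and 0.301 in normoxia, and no ratio overlaps between the groups.

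A further list of 19 genes of AT1 cells was written from general knowledge, with earlier results of these data known. The filter was passed by 17 of them. Of these 13 were higher, 2 were lower and 2 did not pass the test, with a median log2 fold change of 2.40. The largest fold changes were those of Sec14l3, a lipid-binding protein gene (2.84 ± 0.550 to 36.4 ± 17.8 CPM, log2 fold change 3.68), Ndnf, which encodes a secreted factor (2.87 ± 0.629 to 34.9 ± 15.0 CPM, 3.61), and Sema3e, which encodes a guidance ligand for endothelial plexin D (1.61 ± 0.377 to 15.2 ± 6.96 CPM, 3.23). Spock2, which encodes a matrix proteoglycan, rose from 10.9 ± 2.07 to 57.5 ± 20.2 CPM (log2 fold change 2.40, SE 0.272, edgeR adjusted p 7.49e-05). The 4 most abundant members of this list behaved differently from these. Cav1, the caveola gene that ECs also express strongly, fell from 1930.4 ± 74.8 to 1412 ± 78.9 CPM (log2 fold change -0.45). Vegfa, the endothelial growth factor gene, fell from 555 ± 58.1 to 429 ± 10.3 CPM (-0.37). Pxdc1 and Tspan8 rose by little, with log2 fold changes of 0.44 and 0.25.

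A list of 13 AT2 genes was read beside them. Of the 12 that reached the level of the filter in all normoxia libraries, 11 were higher, none was lower and 1 did not pass the test. The remaining gene, S100g, did not reach it in normoxia, so its call was favoured by the filter and is not counted. The median log2 fold change over all 13, S100g included, was 3.14. Sftpc rose from 106 ± 31.1 to 1121 ± 476 CPM (log2 fold change 3.40, SE 0.361, edgeR adjusted p 4.88e-05). Hyperoxia 3 held 419 CPM of Sftpc and hyperoxia 1, 2 and 4 held 1234 to 1423 CPM. Sftpb, which encodes surfactant protein B, rose from 21.2 ± 4.599 to 225 ± 95.0 CPM (3.41). Lpcat1, which encodes an enzyme of surfactant lipid synthesis and was high in normoxia, stood at 118 ± 3.88 and 129 ± 16.9 CPM and did not pass the test (adjusted p 0.255). The summed CPM of the AT2 list was 373 to 479 in normoxia, 920.3 in hyperoxia 3 and 2274 to 2579 in hyperoxia 1, 2 and 4.

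As in 8 of the 9 AT1 genes, hyperoxia 3 held the lowest AT2 sum of its group. When the mean log2 CPM of the AT2 list was added to the edgeR model as a covariate, none of the 9 AT1 genes was past the test. Their log2 fold changes were then between -0.51 and 0.32, with adjusted p-values of 0.55 to 0.963, and over all genes 161 were higher and 30 lower. The covariate itself did not overlap between the groups, with -1.45 to -0.99 in normoxia and 0.21 to 1.59 in hyperoxia, so the covariate and the exposure cannot be told apart by this fit. In bulk libraries more cells of a type and more RNA per cell also cannot be told apart.

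Markers of other cells were read in the same libraries. Of 6 pan-epithelial genes, Cdh1 and Cldn7 reached the level of the filter in all normoxia libraries, and both were higher. Epcam, Cldn3, Esrp1 and Elf5 reached it in all 4 libraries of hyperoxia only, so that their calls were favoured by the filter and are not counted. The summed CPM of all 6 was 4.14 to 5.88 in normoxia, 16.2 in hyperoxia 3 and 46.9 to 51.0 in hyperoxia 1, 2 and 4. Of these the E-cadherin gene Cdh1 went from 2.40 ± 0.828 to 23.2 ± 10.2 CPM and Cldn3 from 0.695 ± 0.285 to 4.81 ± 2.12 CPM, and Esrp1 was the only one of the 6 at 0 in any library. Of the 11 pan-endothelial genes 3 were higher, 3 were lower and 5 did not pass the test, and their summed CPM was 16732 to 17580 in normoxia and 16210 to 17004 in hyperoxia. Cdh5, the VE-cadherin gene, stood at 4121 ± 175 and 4035 ± 140 CPM. Cldn5 rose from 2066 ± 92.4 to 2408 ± 110.3 CPM. Scaling libraries to the summed pan-endothelial counts gave 7 AT1 genes past the test as well, with a log2 fold change of 2.62 for Ager and -0.02 for Clic5. The part of other cells in the AT1 results was not tested further.

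A list of regulators linked to AT1 cells held 8 genes, of which 7 passed the filter, 4 were higher, 2 were lower and 1 did not pass the test. The most abundant were the Hippo pathway coactivators, and they moved in opposite directions. Wwtr1, which encodes TAZ, rose from 403 ± 26.02 to 518 ± 11.2 CPM (log2 fold change 0.36, SE 0.0515, edgeR adjusted p 0.000341), and Yap1 fell from 177 ± 5.08 to 151 ± 3.79 CPM (-0.22, SE 0.0412, adjusted p 0.00172). Nkx2-1, the lung epithelial transcription factor gene, named after its values were seen, rose from 1.36 ± 0.575 to 12.5 ± 5.25 CPM (3.20, SE 0.400, adjusted p 0.000145). In hyperoxia 3 Nkx2-1 was at 25.6% of its rise in the other hyperoxia libraries and Wwtr1 at 94.8%. The other regulators that were higher, Tead1 and Klf5, were at 61.2% and 0.261%, so positions differed widely among these 4 genes. Of all 875 genes higher with a log2 fold change of at least 1, 28.6% were at 30% or less. What set these positions was not tested.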

How the data were processed

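The authors deposited whole-number gene counts and FPKM values for the same 54532 genes and 8 libraries. The submitters' processing notes name HISAT2 2.0.5, featureCounts 1.5.0-p3 and build mm10, and do not state strand or multi-mapped reads. The deposited FPKM differed from FPKM recomputed from the counts only by a constant for each library (0.974 to 1.02), so both tables carry the same counts. Coordinates and gene lengths of the 9 genes equalled those of GENCODE M21 (GRCm38). Groups followed the sample titles.

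Counts were tested with the edgeR 4.0.16 quasi-likelihood test (R 4.3.3), with TMM, filterByExpr and group as the only term, and Benjamini-Hochberg adjustment over 15564 genes. The study had used DESeq2 with a log2 fold change of at least 1. SEs follow from the F statistic. Alternatives were other scalings and filters, DESeq2 1.42.0, limma 3.58.1 (voom, or log2 FPKM), the replicate number as a block, the AT2 score (prior count 2) as a covariate and leaving out each library. Scripts were tested on simulated data. The genes and lists were chosen with earlier results of these data known. Named genes were the 9 genes, the most abundant members of each list and the largest and smallest fold changes of the further AT1 list. They also included Spock2, Sftpc and the 5 protein-coding genes of at least 1 CPM whose profile was nearest to Ager. Nkx2-1, Tead1, Klf5, Kit, Aplnr, Gpihbp1 and Ptprb were outside this rule and were named after their values were seen. Lists covered AT1, AT2, transitional, pan-epithelial and airway epithelium, AT1 regulators, pan-endothelial, aerocyte, general capillary, fibroblast, mural, mesothelial and leukocyte markers.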

Additional observations from a re-analysis of the deposited data

Results flagged for a closer look

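Libraries are listed that lay apart from the other 3 of their group by more than Dixon's critical value for the gap as a share of the range, which happens by chance in about 1 of 20 groups. Of 26 groups examined, 4 met this, and all 4 were hyperoxia 3. The groups are the same libraries read through different genes, and each ratio uses Ager, so they are not independent. Its Aqp5 level was 6.53 CPM and those of hyperoxia 1, 2 and 4 were 25.3 to 27.1 CPM. Its Cldn18 level was 21.1 CPM against 74.2 to 80.2 CPM. Its Gprc5a level was 53.9 CPM against 94.2 to 101 CPM. Its ratio of Hopx to Ager counts was 0.799 against 0.362 to 0.415. In all 4 cases hyperoxia 3 lay between the other hyperoxia libraries and normoxia. No cause was tested.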

How the results depend on the processing

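With the AT2 score as a covariate 161 genes were higher and 30 lower, none of the 9 AT1 genes was past the test (0 with or without the fold threshold), and the further AT1 list (0 higher, 0 lower) and the AT2 list (0 higher) had no calls. The log2 fold changes under this fit were -0.39 for Ager, -0.38 for Hopx, -0.17 for Aqp5, -0.51 for Akap5, -0.23 for Emp2, 0.11 for Rtkn2, 0.12 for Cldn18 and 0.32 for Gprc5a. The score is the mean of the AT2 list itself, so the loss of calls in that list followed from the fit. It also did not overlap between the groups, so this fit cannot tell the score and the exposure apart. The cause was not tested. Under all other alternatives 7 AT1 genes were higher, or 8 without normoxia 3, where Emp2 passed, and none was lower. Leaving out single libraries gave log2 fold changes of 0.12 to 0.33 for Emp2. It gave differences of the log2 count ratio of -0.93 to -0.73 for Ager to Sftpc, -2.11 to -1.73 for Hopx to Ager and 0.90 to 1.36 for Aqp5 to Ager, each with a permutation p of 0.0571, the smallest that 4 against 3 libraries allow. With a limit of 20 FPKM 3 genes counted as high in normoxia instead of 5.

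The labels do not say whether the replicate numbers pair the libraries. Deviations of same-numbered libraries from their group means correlated at 0.119, 0.0361, -0.125 and -0.14 across genes. Not every library correlated best with its own number. Such values cannot exclude a batch shared by libraries of the same number. With the replicate block 2582 genes were higher and 2210 lower, and 7 AT1 genes were higher. The block made the SE smaller for each AT1 gene except Rtkn2 and Clic5. It was 0.218 instead of 0.312 for Ager and 0.393 instead of 0.370 for Rtkn2. On log2(FPKM + 1) with no filter, which changes several choices at once, the log2 fold changes of the 4 genes that were low in normoxia were 2.39 for Aqp5, 2.67 for Cldn18, 1.78 for Akap5 and 1.24 for Rtkn2, and all remained past the test. Adding 1 to levels near or below 1 FPKM makes fold changes smaller.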

Other observations

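The comparison of profiles with Ager took in 12658 protein-coding genes with a mean of at least 1 CPM. Outside the 9 AT1 genes, the profile over the 8 libraries nearest to that of Ager was that of Col4a3, followed by Col4a4, Scnn1a, Spock2 and Myo5b. The measure was the root mean square difference of log2 CPM after each gene was set relative to its own normoxia mean, which was 0.0685 for Col4a3 and 0.211 for Myo5b, against a median of 1.82 over all genes compared. Col4a3 and Col4a4, which encode collagen IV chains found in the alveolar basement membrane, went from 7.57 ± 1.33 to 48.7 ± 20.5 CPM and from 7.55 ± 1.30 to 51.9 ± 22.4 CPM. Scnn1a, which encodes a subunit of the epithelial sodium channel, went from 3.97 ± 0.984 to 23.3 ± 9.83 CPM. Of the AT1 genes Akap5 was nearest to Ager, at 0.158, and Clic5 farthest, at 1.85. All points share the same 8 libraries, so this is a description.

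Of 7 genes of transitional alveolar epithelium, 5 passed the filter. Of these Krt8, Krt19 and Itgb6 did not reach its level in all normoxia libraries and are not counted, 1 of the remaining 2 was higher and 1 did not pass the test. Krt18, a keratin gene, went from 2.60 ± 1.13 to 6.18 ± 2.08 CPM, and Sfn, at 21.4 ± 0.628 and 24.4 ± 2.01 CPM, did not pass it (edgeR adjusted p 0.0626). Of 6 airway epithelial genes only Scgb1a1 and Foxj1 passed the filter, with group means of at most 1.24 CPM, and neither passed the test. Scgb1a1 did not reach the level of the filter in all normoxia libraries. Scgb3a2, Ccdc153 and Tmem212 were at 0 in at least 1 library. All 6 mural genes were higher, Rgs5 from 28.7 ± 4.71 to 61.8 ± 9.998 CPM and Acta2 from 2.57 ± 1.08 to 10.7 ± 2.63 CPM. Of 4 fibroblast genes that reached the level of the filter in all normoxia libraries 2 were higher, Col1a1 from 24.4 ± 6.69 to 71.2 ± 25.6 CPM and Col1a2 from 41.0 ± 12.4 to 91.1 ± 32.9 CPM. Of 4 mesothelial genes only Msln passed the filter, through hyperoxia alone, at 0.266 ± 0.254 and 1.47 ± 0.599 CPM, and all 4, Msln and Lrrn4 included, were at 0 in at least 1 library. Of 6 leukocyte genes 1 was higher, Lyz2, which AT2 cells also express (77.3 ± 36.4 to 225 ± 90.1 CPM), and 1 was lower, Cd68 (40.8 ± 4.64 to 25.7 ± 3.02 CPM). The groups overlapped in Lyz2, as normoxia 3 at 123.7 CPM lay above hyperoxia 3 at 100.9 CPM. All 6 aerocyte genes were higher, among them Apln and Prx, with log2 fold changes of 1.51 and 0.56. The 6 general capillary genes had 4 lower and 1 higher among them, and Plvap and Cd93, the most abundant ones, had log2 fold changes of 0.01 and 0.23. Those that were lower were Kit (-1.29), Aplnr (-0.80), Gpihbp1 (-0.72) and Ptprb (-0.57), named after their values were seen, and the list median was -0.64.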
